A study of Mus musculus with 6 samples.

Results

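The glucocorticoid receptor gene Nr3c1 and 9 genes that glucocorticoids commonly induce were examined in mouse liver RNA-seq. The targets were Tsc22d3, Fkbp5, Sgk1, Zbtb16, Mt1, Mt2, Klf9, Errfi1 and Dusp1. The members were taken by gene symbol from a given list, and all 10 were found among the 23284 genes of the deposited counts and passed the filter on low counts. The livers came from male FXR-floxed mice that had been given AAV8 vectors at 8 weeks of age. Every mouse received AAV-TBG-Cre, which removes the floxed mouse FXR gene in hepatocytes because the TBG promoter is active in those cells. A second vector carried FXR, as wild type in the FXR-WT group and with tyrosine 67 changed to phenylalanine, which blocks its phosphorylation there, in the Y67F-FXR group. All mice were fed chow with 0.5% cholic acid (CA) for 6 h at 4 weeks after infection, and each of the 3 FXR-WT and 3 Y67F-FXR livers gave its own library. The labels name no glucocorticoid treatment in either group, and livers without the vectors or on ordinary chow were not analysed here.

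The glucocorticoid receptor is a nuclear receptor that waits in the cytoplasm in a complex with HSP90 and its cochaperones. Hormone binding moves it to the nucleus, where it binds palindromic DNA elements as a dimer and raises transcription of genes for glucose production, amino acid breakdown and feedback on its own signal. In liver it acts during fasting, stress and the daily rise of corticosterone. Some of its targets also answer to other signals, and the metallothionein genes Mt1 and Mt2 are induced by zinc through the factor MTF-1 at metal response elements (MREs).

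The promoter windows of the metallothionein pair are shown because Mt2 had the largest fitted difference between the groups and Mt1 is its neighbour. RefSeq windows (GRCm38.p6) of 8 of the 10 members were searched, 16 in all, each reaching from 250 bases before to 50 bases after a transcription start. Windows of Nr3c1 were left out of this search, and none was found for Zbtb16. The windows were searched on both strands for the MRE core, written TGCACNC or TGCGCNC, for the palindromic glucocorticoid response element, written GNACA, any 3 bases and TGTNC, and for its hexamer AGAACA. The Mt2 window (chr8:94172368-94172667, plus strand) held 4 MRE cores and the Mt1 window (chr8:94178839-94179138, plus strand) held 3. Capitals mark the MRE cores.
Mt2: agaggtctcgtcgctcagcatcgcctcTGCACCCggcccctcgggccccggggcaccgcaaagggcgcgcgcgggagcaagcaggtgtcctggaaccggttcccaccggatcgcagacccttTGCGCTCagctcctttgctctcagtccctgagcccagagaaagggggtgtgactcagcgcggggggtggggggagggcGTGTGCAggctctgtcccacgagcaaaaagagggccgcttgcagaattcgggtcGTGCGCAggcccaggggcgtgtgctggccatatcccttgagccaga
Mt1: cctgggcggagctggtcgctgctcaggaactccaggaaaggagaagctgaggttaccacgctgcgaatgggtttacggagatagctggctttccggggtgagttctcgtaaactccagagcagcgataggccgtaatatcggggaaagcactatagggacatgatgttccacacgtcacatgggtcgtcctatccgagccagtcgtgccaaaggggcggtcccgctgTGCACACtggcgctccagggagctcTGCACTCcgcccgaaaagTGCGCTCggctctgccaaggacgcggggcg
Of 32851 windows of the same length, 25.7% held at least 1 MRE core, 1.97% at least 3 and 0.517% at least 4. The Mt1 window also held the palindromic element, as GGACATGATGTTC from position -94 relative to the start, overlapping no MRE core. That element was found in 0.475% of all windows. Among the 8 members searched it occurred otherwise only in a window of Sgk1 (chr10:21993640-21993939, plus strand), which is shown for comparison with the element in capitals.
Sgk1: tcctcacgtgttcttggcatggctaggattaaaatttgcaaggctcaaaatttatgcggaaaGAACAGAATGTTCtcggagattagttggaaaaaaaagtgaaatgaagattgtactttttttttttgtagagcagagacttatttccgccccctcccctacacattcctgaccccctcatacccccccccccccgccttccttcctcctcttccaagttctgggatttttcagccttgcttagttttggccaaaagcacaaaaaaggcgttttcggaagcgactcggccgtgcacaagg
The hexamer, found in 19.0% of all windows, was present 3 times in that Sgk1 window, and 2 of these copies overlapped the palindrome. It was also found once each in 2 other Sgk1 windows and in a Tsc22d3 window, and another Sgk1 window held 1 MRE core. The windows of Fkbp5, Klf9 and Errfi1 held none of the 3 motifs, and that of Dusp1 held 1 MRE core. These matches are letters in a short window and were not tested for binding.

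Library totals ranged from 19551113 to 22053320 counts on genes. The labelled tissue showed its markers, with Alb between 67620 and 76520 CPM (counts scaled to library size with TMM factors) and the hepatocyte factor Hnf4a between 409 and 563 CPM. Libraries differed by gene length within both groups. In the shortest 20% of the tested genes, the median log2 deviation from the mean of the 6 livers ran from -0.18 (replicate 3) to 0.20 (replicate 1) among FXR-WT livers, and from -0.20 (replicate 1) to 0.22 (replicate 2) among Y67F-FXR livers. Summed CPM of 11 Kupffer cell and leukocyte markers ranged from 158 to 232 in FXR-WT and from 127 to 289 in Y67F-FXR livers. Summed CPM of 10 stellate cell markers ranged from 221 to 242 and from 162 to 219, of 10 sinusoidal endothelial markers from 326 to 359 and from 331 to 337, and of 8 cholangiocyte markers from 65.4 to 95.6 and from 73.8 to 78.5. Of 7 erythrocyte markers, the 4 globin genes were listed at 0 in all libraries, and the sum ranged from 80.4 to 89.4 and from 86.7 to 114. The part of these cells in the results for the 10 genes was not tested, and in whole liver, fewer cells of a type and less RNA per cell cannot be told apart.

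None of the 10 genes was called between Y67F-FXR and FXR-WT livers in edgeR, and 1, Zbtb16, was called in DESeq2. Calls needed a fold change over 1.5 and, in edgeR's quasi-likelihood test, a p under 0.05 after Benjamini-Hochberg adjustment over all tested genes. By this rule 121 of 12453 genes were called, a background of 0.972%, with 68 higher and 53 lower in Y67F-FXR livers (52 higher and 68 lower when scaled by library totals). In DESeq2, with the same thresholds, 3.25% of 12916 genes were called, 1.66% higher and 1.59% lower. At an unadjusted p under 0.05 in the same test, 2 of the 10 genes were higher and 0 lower, against 6.75% higher and 6.67% lower over all tested genes. These were Mt2 and Zbtb16. In 1 of the 10 genes, Mt2, the groups did not overlap, against 20.6% of all tested genes. The median log2 fold change of the 10 genes was 0.12, beside 0.01 over all tested genes. For a single gene or ratio, the smallest two-sided p of the exact permutation test was 0.1 in this design.

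**Figure D1:**
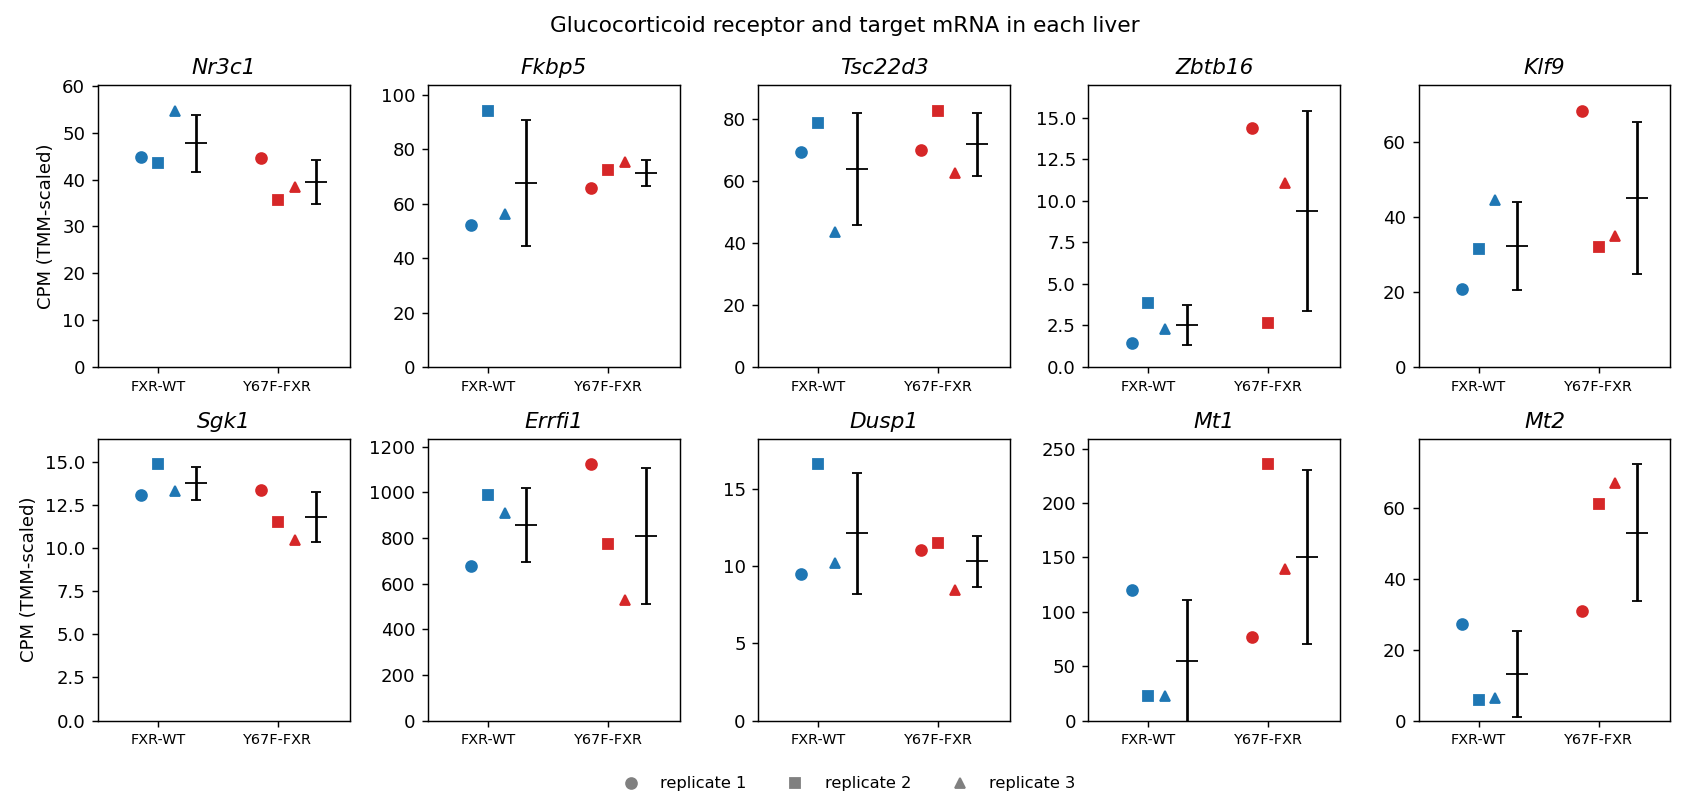
Level of each of the 10 genes in each liver, in TMM-scaled CPM on linear axes from 0. Blue symbols are FXR-WT and red symbols Y67F-FXR livers, the symbol shape gives the replicate, and bars give the mean ± SD of 3 livers (the lower bar of Mt1 in FXR-WT runs below 0). Mt2 is the panel in which the groups do not overlap, from 5.87 to 27.2 CPM against 30.9 to 66.8 CPM.

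Nr3c1, which encodes the receptor (chromosome 18 of mm9, 39570199 to 39646899), was expressed at 44.8, 43.6 and 54.7 CPM in FXR-WT replicates 1 to 3 and at 44.7, 35.6 and 38.4 CPM in Y67F-FXR replicates 1 to 3. FXR-WT replicate 3 was the highest of the 6 livers, and the groups overlapped through Y67F-FXR replicate 1. The means were 47.7 ± 6.11 CPM (SD, n = 3) and 39.6 ± 4.68 CPM (SD, n = 3). On the log2 scale the fitted difference was -0.27 (adjusted p = 0.485 from edgeR), with a standard error of 0.145 and a 95% interval from -0.60 to 0.06. With offsets for gene length the livers read 48.6, 43.5 and 51.2 CPM against 39.0, 39.9 and 38.8 CPM, so that the groups no longer overlapped, with an adjusted p of 0.211 from edgeR. With these offsets the groups of 3 of the 10 genes did not overlap, against 23.8% of all tested genes.

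Fkbp5 encodes FKBP51, an HSP90 cochaperone that lowers the affinity of the receptor for hormone and is itself strongly induced by it, forming a short feedback loop. It was expressed at 52.1, 94.2 and 56.3 CPM in FXR-WT and at 65.9, 72.2 and 75.5 CPM in Y67F-FXR livers. The Y67F-FXR values lay close together between the FXR-WT extremes, and FXR-WT replicate 2 was the highest liver. The means were 67.5 ± 23.2 CPM (SD, n = 3) and 71.2 ± 4.86 CPM (SD, n = 3), and the log2 fold change was 0.08 with a 95% interval from -0.44 to 0.59 (adjusted p = 0.936 from edgeR).

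Tsc22d3 encodes GILZ, a leucine zipper protein that carries part of the anti-inflammatory action of glucocorticoids. Its level was 69.3, 78.9 and 43.7 CPM in FXR-WT and 70.1, 82.8 and 62.7 CPM in Y67F-FXR livers. FXR-WT replicate 3 was the lowest, and the groups overlapped. Its fitted log2 difference was 0.17 with a 95% interval from -0.34 to 0.68 (adjusted p = 0.824 from edgeR).

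Zbtb16 encodes PLZF, a zinc finger transcription factor that is among the most inducible glucocorticoid targets in many tissues. Its counts were low, 29, 79 and 53 reads in FXR-WT and 296, 49 and 232 reads in Y67F-FXR replicates 1 to 3. These correspond to 1.42, 3.83 and 2.29 CPM and to 14.4, 2.67 and 11.1 CPM. Y67F-FXR replicates 1 and 3 stood above all FXR-WT livers, while Y67F-FXR replicate 2 lay inside the FXR-WT range. The mean of FXR-WT livers was 2.51 ± 1.22 CPM (SD, n = 3) and that of Y67F-FXR livers 9.38 ± 6.04 CPM (SD, n = 3), a fitted fold of 3.74. This is a log2 difference of 1.90 (standard error 0.591), with an unadjusted p of 0.0123 and an adjusted p of 0.204 from edgeR. Its 95% interval ran from 0.54 to 3.27. The call depended on a single liver and on the tool, since without Y67F-FXR replicate 2 the log2 fold change was 2.33 (adjusted p = 0.0452 from edgeR), and DESeq2 gave 1.90 with an adjusted p of 0.0152.

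Klf9 encodes a Krüppel-like factor that represses growth genes and is induced by glucocorticoids and by thyroid hormone. It was expressed at 20.9, 31.5 and 44.4 CPM in FXR-WT and at 68.4, 32.02 and 34.9 CPM in Y67F-FXR livers. Y67F-FXR replicate 1 was the highest liver for Klf9, as it was for Zbtb16 and Errfi1, and the other Y67F-FXR livers lay inside the FXR-WT range. For Klf9 the fitted log2 difference was 0.48 with a 95% interval from -0.33 to 1.29 (adjusted p = 0.642 from edgeR), and it was 0.05 without Y67F-FXR replicate 1.

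Among the signalling genes, Sgk1 encodes a kinase that couples steroid hormones to sodium transport. It had 13.1, 14.9 and 13.3 CPM in FXR-WT and 13.4, 11.5 and 10.5 CPM in Y67F-FXR livers. Like Nr3c1, it overlapped between groups only through Y67F-FXR replicate 1. Sgk1 had a fitted log2 difference of -0.22 with a 95% interval from -0.56 to 0.11 (adjusted p = 0.594 from edgeR).

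Errfi1 encodes MIG6, which inhibits the epidermal growth factor receptor. Its level was 677, 989 and 911 CPM in FXR-WT and 1124, 772 and 529 CPM in Y67F-FXR livers. The highest and the lowest liver both belonged to the Y67F-FXR group. Errfi1 had a fitted log2 difference of -0.09 with a 95% interval from -0.71 to 0.54 (adjusted p = 0.940 from edgeR).

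Dusp1 encodes a phosphatase that switches off stress-activated MAP kinases. It was measured at 9.53, 16.6 and 10.2 CPM in FXR-WT and at 11.1, 11.5 and 8.45 CPM in Y67F-FXR livers. FXR-WT replicate 2 was the highest liver, and the other FXR-WT livers lay inside the Y67F-FXR range. Dusp1 had a fitted log2 difference of -0.23 with a 95% interval from -0.79 to 0.33 (adjusted p = 0.762 from edgeR).

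Mt2 and Mt1 encode small cysteine-rich proteins that bind zinc and copper. The genes lie next to each other in the same orientation, Mt2 at 96696518 to 96697467 and Mt1 at 96702989 to 96704227 on chromosome 8 of mm9, with 5521 bases between them. Mt2 was at 27.2, 5.87 and 6.27 CPM in FXR-WT and at 30.9, 61.1 and 66.8 CPM in Y67F-FXR livers. All Y67F-FXR livers were above all FXR-WT livers, although FXR-WT replicate 1 and Y67F-FXR replicate 1 were close to each other. The means were 13.1 ± 12.2 CPM (SD, n = 3) and 52.9 ± 19.3 CPM (SD, n = 3), a fitted fold of 4.05. The log2 fold change of Mt2 was 2.02 (standard error 0.600, 95% interval from 0.63 to 3.40), with an unadjusted p of 0.00996 and an adjusted p of 0.186 from edgeR. A single liver decided the call, since without FXR-WT replicate 1 the log2 fold change of Mt2 was 3.12 and the adjusted p 0.0200 from edgeR.

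Mt1 was at 119.8, 22.9 and 22.2 CPM in FXR-WT and at 77.2, 236 and 139 CPM in Y67F-FXR livers. FXR-WT replicate 1 was above Y67F-FXR replicate 1, so that the groups overlapped, while the other 2 FXR-WT livers were the lowest of all. The fitted log2 difference of Mt1 was 1.46 (standard error 0.693, 95% interval from -0.14 to 3.05, adjusted p = 0.424 from edgeR). Without FXR-WT replicate 1 it was 2.74 (adjusted p = 0.0621 from edgeR), and without Y67F-FXR replicate 2 it was 0.97 (adjusted p = 0.598 from edgeR).

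Both metallothionein genes are short (542 bases of exon for Mt1 and 556 for Mt2), and the libraries with the highest level of short genes in each group, FXR-WT replicate 1 and Y67F-FXR replicate 2, were also those with the highest Mt1. At the length of Mt1, the trend over all genes deviated in log2 by 0.29, -0.05 and -0.26 in FXR-WT and by -0.32, 0.40 and -0.06 in Y67F-FXR replicates 1 to 3. With length offsets, Mt2 was at 22.3, 6.09 and 7.49 CPM in FXR-WT and at 38.5, 46.4 and 69.5 CPM in Y67F-FXR livers, and its log2 fold change was 2.09 (adjusted p = 0.0614 from edgeR). With the same offsets, Mt1 of FXR-WT replicate 1 was at 98.0 CPM and Y67F-FXR replicate 1 at 96.4 CPM, and the log2 fold change was 1.5 (adjusted p = 0.185 from edgeR). Mt1 exceeded Mt2 per length in every liver, with a ratio of RPKM values (CPM divided by exon length in kilobases) of 4.05 ± 0.449 (SD, n = 3) in FXR-WT and 2.88 ± 0.952 (SD, n = 3) in Y67F-FXR livers. The ratios overlapped between groups (exact permutation test, two-sided, p = 0.2, 0.267 after adjustment over the 4 ratios of gene pairs tested). Of 504 runs of 100 bases in GENCODE Mt2 transcripts, 113 also occur on the opposite strand in the antisense gene Gm45774, which spans the start of Mt2. Reads were counted without strand, so RNA of that gene cannot be told apart from Mt2. No run of that length in Mt1, or in the other 8 members, occurred in another gene's transcripts.

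**Figure D2:**
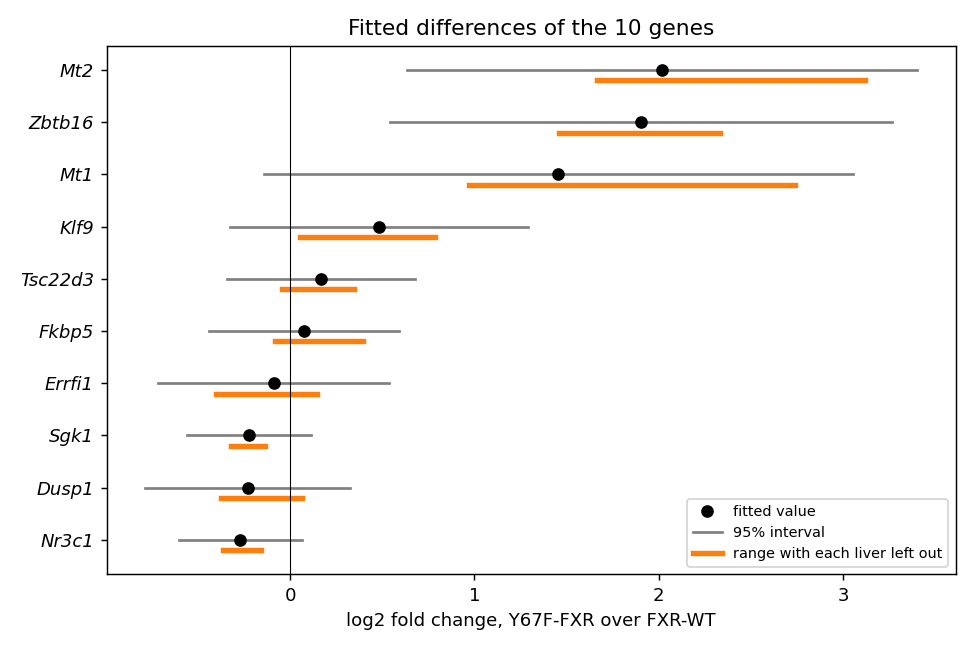
Fitted log2 fold change of each of the 10 genes, Y67F-FXR over FXR-WT (points), with the 95% interval (grey) and the range when each liver was left out in turn (orange). The intervals of Mt2 (0.63 to 3.40) and Zbtb16 (0.54 to 3.27) lie above 0, and those of the other 8 genes span it.

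The 10 genes differed widely in their spread between livers of the same group. The SD of log2 CPM within groups was 1.14 for Mt1, 1.03 for Zbtb16 and 0.98 for Mt2, beside a median of 0.23 over the 11514 genes that averaged 1 CPM or more. Of those genes, 99.7%, 99.5% and 99.3% varied less than Mt1, Zbtb16 and Mt2. Klf9 (0.57) varied more than 94.7% of them, whereas Nr3c1 (0.17) and Sgk1 (0.14) varied more than 33.9% and 23.6%. The genes with the largest fitted differences between groups were thus also those with the largest spread within groups.

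No liver was highest or lowest throughout. Among the 9 targets, FXR-WT replicate 2 was the highest liver for 3 genes (Fkbp5, Sgk1 and Dusp1), Y67F-FXR replicate 1 for 3 (Zbtb16, Klf9 and Errfi1), Y67F-FXR replicate 2 for 2 (Tsc22d3 and Mt1) and Y67F-FXR replicate 3 for 1 (Mt2). FXR-WT replicate 1 was the lowest for 3 (Fkbp5, Zbtb16 and Klf9), Y67F-FXR replicate 3 for 3 (Sgk1, Errfi1 and Dusp1), FXR-WT replicate 3 for 2 (Tsc22d3 and Mt1) and FXR-WT replicate 2 for 1 (Mt2). Mt1, Mt2 and Zbtb16 deviated with the same sign in 4 of the 6 livers, below their mean in FXR-WT replicates 2 and 3 and above it in Y67F-FXR replicates 1 and 3. In the other livers they did not. Y67F-FXR replicate 2 deviated from the mean of the 6 livers by 1.69 on the log2 scale for Mt1 and 1.45 for Mt2 but by -0.64 for Zbtb16, and FXR-WT replicate 1 by 0.71 and 0.28 but by -1.56.

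**Figure D3:**
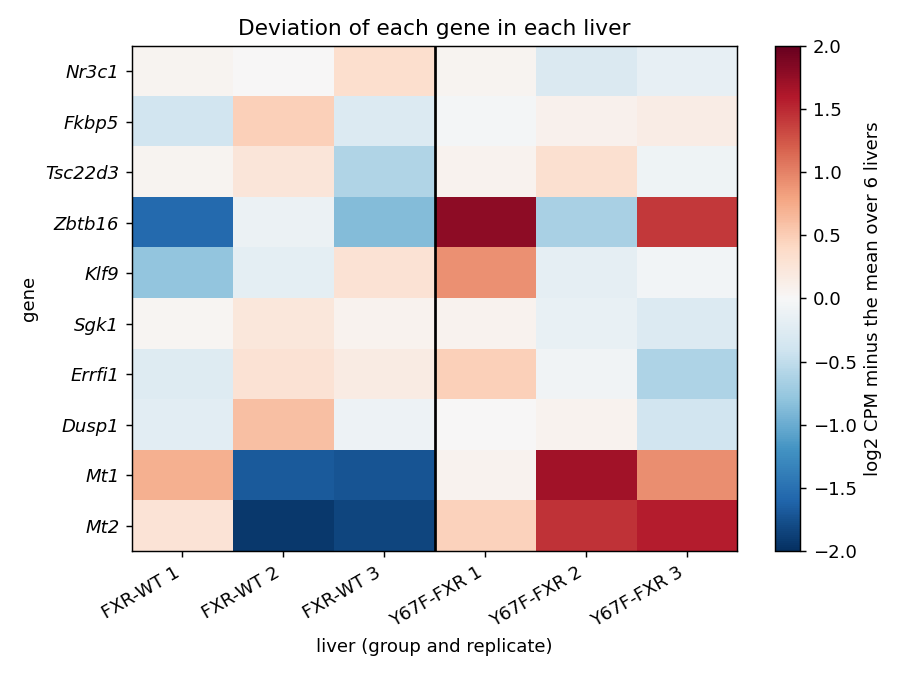
Deviation of each gene (rows) in each liver (columns) from its mean log2 CPM over the 6 livers, on a scale from -2 (blue) to 2 (red). Mt1 and Mt2 share their lowest livers, FXR-WT replicates 2 and 3, while Zbtb16 is high in Y67F-FXR replicates 1 and 3.

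Levels of different genes were compared per length, as RPKM. In FXR-WT livers the order was Errfi1 (285 ± 53.8 RPKM, SD, n = 3), Mt1 (101 ± 103.6), Tsc22d3 (25.7 ± 7.31), Mt2 (23.6 ± 21.9), Fkbp5 (19.3 ± 6.62), Klf9 (9.89 ± 3.61), Nr3c1 (7.54 ± 0.966), Dusp1 (6.25 ± 2.01), Sgk1 (3.31 ± 0.234) and Zbtb16 (0.491 ± 0.239). The ranges of Tsc22d3 and Mt2, of Mt2 and Fkbp5, of Klf9 and Nr3c1, and of Nr3c1 and Dusp1 overlapped, and those of the other neighbours did not. In Y67F-FXR livers Mt1 (278 ± 147 RPKM, SD, n = 3) stood before Errfi1 (268 ± 99.1), with overlapping ranges, and Mt2 (95.2 ± 34.7) came before Tsc22d3 (28.9 ± 4.08), with ranges that did not overlap. The other 6 genes kept the order of their means in both groups, from Fkbp5 down to Zbtb16. Among these, the Y67F-FXR ranges of Fkbp5 and Klf9, of Nr3c1 and Dusp1, and of Sgk1 and Zbtb16 overlapped.

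For the proteins that hold the receptor ready for hormone, 20 genes of chaperones, cochaperones and coregulators were listed. Of these, 1 was called lower and 0 higher in edgeR, against 0.426% lower and 0.546% higher over all tested genes. In DESeq2 4 were called lower and 0 higher, against 1.59% lower and 1.66% higher over all genes. At an unadjusted p under 0.05 in edgeR 8 were lower and 2 higher, against 6.67% lower and 6.75% higher over all tested genes. Stip1, which encodes HOP, the adaptor between HSP70 and HSP90, was the called gene, at a fold of 0.466 between Y67F-FXR and FXR-WT livers (adjusted p = 0.0175 from edgeR). Its mean was 185 ± 23.6 CPM (SD, n = 3) with FXR-WT and 86.1 ± 3.64 CPM (SD, n = 3) with Y67F-FXR. The adjusted p from edgeR was 0.0834 without FXR-WT replicate 3, 0.0571 without Y67F-FXR replicate 1 and 0.0810 without Y67F-FXR replicate 3. Fkbp4 encodes FKBP52, the cochaperone that replaces FKBP51 as the receptor is activated. It was at 295, 236 and 260.3 CPM in FXR-WT and at 144, 157 and 174 CPM in Y67F-FXR livers. Fkbp4 differed by -0.73 on the log2 scale (adjusted p = 0.0558 from edgeR and 0.000284 from DESeq2). The adjusted p from edgeR was from 0.0209 to 0.0479 with length offsets, library totals or no filter. With a replicate block it was 0.247, with the block and length offsets 0.0848, and with each liver left out from 0.1145 to 0.186. The ratio of Fkbp5 to Fkbp4 in RPKM was 0.109, 0.247 and 0.134 in FXR-WT and 0.283, 0.284 and 0.268 in Y67F-FXR livers. All Y67F-FXR ratios were above all FXR-WT ratios (exact permutation test, two-sided, p = 0.1, the smallest this design allows, and 0.267 after adjustment over the 4 ratios). Fkbp5 alone overlapped between the groups (log2 fold change 0.08) and Fkbp4 alone did not, so this ratio is not separate from the difference in Fkbp4. For Klf9 over Klf13 and Zbtb16 over Nr3c1 the same test gave p of 0.5 and 0.2. The gene for HSP90 alpha, Hsp90aa1, was named after its values were seen and differed by -1.21 on the log2 scale (adjusted p = 0.0576 from edgeR). It was called lower in DESeq2, and in edgeR with no filter, with length offsets or without FXR-WT replicate 2.

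Of 25 other glucocorticoid-induced liver genes, 2 were called higher and 0 lower in edgeR, against 0.546% called higher over all tested genes. In DESeq2 8 were called higher and 0 lower, against 1.66% called higher over all genes. The edgeR count for this list was 5 with length offsets and 4 without FXR-WT replicate 1. It was 0 without FXR-WT replicate 3, Y67F-FXR replicate 1 or Y67F-FXR replicate 3, and 0 with a replicate block. At an unadjusted p under 0.05 in edgeR, 12 were higher and 0 lower, against 6.75% higher over all tested genes. Their median log2 fold change was 0.57. The list was chosen with earlier results of these samples known, so these counts are not independent evidence, and many of its genes also answer to fasting and insulin. G6pc, for the last enzyme of glucose release, rose by 3.42 on the log2 scale, with an adjusted p of 0.0244 from edgeR. Its FXR-WT mean was 32.5 ± 19.6 CPM (SD, n = 3) and its Y67F-FXR mean 348 ± 106 CPM (SD, n = 3). Bcl6, a transcriptional repressor, was at 4.65, 9.41 and 8.86 CPM in FXR-WT and at 29.8, 28.5 and 19.9 CPM in Y67F-FXR livers. Bcl6 rose by 1.77 on the log2 scale (adjusted p = 0.0353 from edgeR). The call of Bcl6 held only without FXR-WT replicate 1 among the fits with a liver left out, and the adjusted p from edgeR lay between 0.0810 and 0.105 in the other 5. The call of G6pc was lost without FXR-WT replicate 3, Y67F-FXR replicate 1 or Y67F-FXR replicate 3 (adjusted p = 0.105, 0.0571 and 0.0810 from edgeR). Per1, a clock gene with a well-known glucocorticoid response element, was named after its values were seen. It was at 14.7, 30.7 and 20.1 CPM against 43.2, 42.2 and 30.03 CPM, a log2 difference of 0.82 (adjusted p = 0.234 from edgeR).

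**Figure D4:**
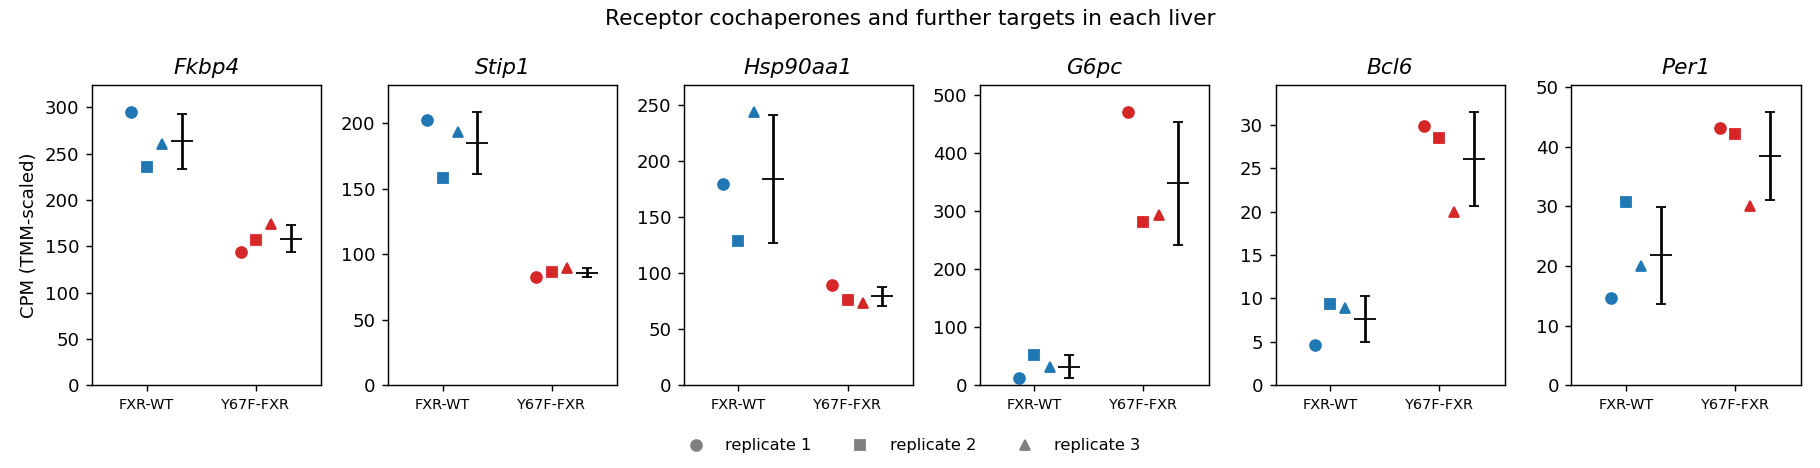
Receptor cochaperones (Fkbp4, Stip1), the HSP90 gene Hsp90aa1 and further glucocorticoid-induced genes (G6pc, Bcl6, Per1) in each liver, in TMM-scaled CPM on linear axes from 0, with the mean ± SD of 3 livers. The groups overlap in none of the panels but Per1, where they meet at 30.7 against 30.03 CPM.

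The supply of active hormone in liver depends on 11 beta-hydroxysteroid dehydrogenase type 1, which regenerates corticosterone. Of 10 genes for glucocorticoid activation, inactivation and binding, 9 were tested, 0 were called in edgeR or in DESeq2, and 2 were lower and 0 higher at an unadjusted p under 0.05 in edgeR, against 6.67% lower and 6.75% higher over all tested genes. Hsd11b1, for that enzyme, averaged 429 ± 49.7 CPM (SD, n = 3) with FXR-WT and 456 ± 48.2 CPM (SD, n = 3) with Y67F-FXR, a log2 difference of 0.09 (adjusted p = 0.867 from edgeR). Serpina6, for the corticosteroid-binding globulin of plasma, differed by -0.44 on the log2 scale (adjusted p = 0.266 from edgeR), and the steroid dehydrogenase gene Akr1c6 by -0.40 (adjusted p = 0.237 from edgeR). In both genes the groups did not overlap, as in 20.6% of all tested genes (10.5% lower).

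Zinc handling genes were listed beside the metallothioneins, and of 12, 10 were tested, 0 were called in edgeR or in DESeq2, and 2 were lower and 0 higher at an unadjusted p under 0.05 in edgeR (6.67% and 6.75% over all tested genes). Mtf1, for the zinc sensor that induces metallothionein genes, differed by 0.14 on the log2 scale (adjusted p = 0.759 from edgeR), and its exons overlap those of 1 other gene. The zinc importer genes Slc39a10 (-1.01) and Slc39a7 (-0.46) had adjusted p of 0.322 and 0.369 from edgeR. Acute phase signals also induce metallothioneins. Of 15 tested acute phase genes 0 were called in edgeR and 1 (Apcs, lower) in DESeq2, which called 1.59% of all genes lower. At an unadjusted p under 0.05 in edgeR 1 was higher and 2 lower (6.75% and 6.67% over all tested genes). The median log2 fold change of the acute phase list was -0.21. Saa1, for a serum amyloid A protein, was at 185, 58.4 and 368 CPM in FXR-WT and at 10.5, 91.05 and 23.2 CPM in Y67F-FXR livers, a log2 difference of -2.30 (adjusted p = 0.294 from edgeR). Leaving out Y67F-FXR replicate 2 gave -3.62 for Saa1 (adjusted p = 0.130 from edgeR), and leaving out FXR-WT replicate 3 gave -1.55 (adjusted p = 0.571 from edgeR). Apcs and Lbp had log2 fold changes of -1.001 and 0.33 (adjusted p = 0.0994 and 0.238 from edgeR). Apcs had an adjusted p of 0.00353 from DESeq2, 0.0189 from edgeR with length offsets and 0.049 from edgeR with these and the replicate block.

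Close relatives of the members gave 13 tested genes, of which 0 were called in edgeR and 1 (Klf10, higher) in DESeq2, and 2 each were higher and lower at an unadjusted p under 0.05 in edgeR. Over all tested genes these shares were 6.75% and 6.67%, and DESeq2 called 1.66% higher and 1.59% lower. Klf10 and Klf11, relatives of Klf9, had log2 fold changes of 1.41 and 0.83 (adjusted p = 0.100 and 0.186 from edgeR, 0.00165 and 0.0611 from DESeq2), and neither overlapped between groups, where 10.2% of all tested genes were higher without overlap. Tsc22d1, related to Tsc22d3, differed by -0.15 on the log2 scale (adjusted p = 0.896 from edgeR). Immediate early genes, which growth factors and stress induce together with Dusp1 and Errfi1, gave 15 tested genes with 0 called in edgeR and 1 higher and 1 lower in DESeq2. These genes counted 1 higher and 2 lower at an unadjusted p under 0.05 in edgeR, beside the same 6.75% and 6.67% over all tested genes. Egr1 (-2.06) and Fosl2 (0.81) had adjusted p of 0.0547 and 0.0721 from edgeR and of 3.46e-06 and 0.00459 from DESeq2. Egr1 was also called lower in edgeR with library totals, no filter or length offsets, and without FXR-WT replicate 2 or Y67F-FXR replicate 2 (adjusted p from 0.0264 to 0.0486 from edgeR). Fos was below the filter at 0.600 ± 0.185 CPM (SD, n = 3) and 0.316 ± 0.106 CPM (SD, n = 3). Of 13 tested clock genes, 0 were called in edgeR and 1 (Nfil3, higher, adjusted p = 0.0288) in DESeq2, against 1.66% called higher over all genes. At an unadjusted p under 0.05 in edgeR 3 were higher and 0 lower, against 6.75% and 6.67% over all tested genes. Nfil3 (0.67), Nr1d1 (0.57) and Arntl (0.20) had adjusted p of 0.133, 0.138 and 0.869 from edgeR.

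**Figure D5:**
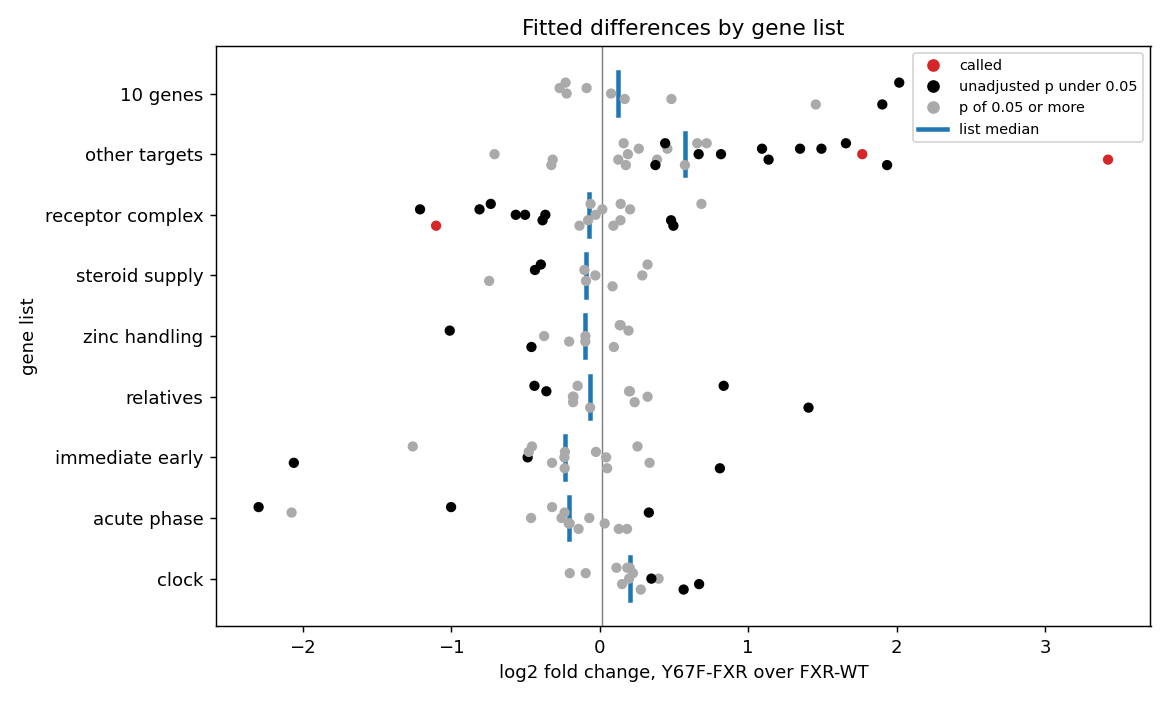
Fitted log2 fold change, Y67F-FXR over FXR-WT, of each tested gene in the 10-gene set and in 8 further lists (rows). Red points are called genes, black points have an unadjusted p under 0.05, grey points do not, blue bars are list medians and the grey line is the median of all tested genes (0.01). The 10 genes hold no red point, the other targets 2 and the receptor complex 1.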

How the data were processed

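The authors deposited counts per gene, not normalized, with 1 library per liver. Per the file headers, featureCounts 1.4.6-p4 counted reads on the exons of UCSC mm9 genes, without strand and without the paired-end option. The submitters' processing notes name bcl2fastq 2.17.1.14, Trimmomatic 0.36, STAR 2.5.3a and edgeR. A table of the authors' own comparison (fold changes and p-values per gene) was not used.

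After filterByExpr and TMM scaling, the counts entered glmQLFit and glmQLFTest (edgeR 4.0.16, limma 3.58.1, R 4.3.3) over 12453 genes, with no replicate block. The common biological coefficient of variation was 0.194. Standard errors and 95% intervals come from the F statistic. RPKM were computed from TMM-scaled CPM and the exon length of the count files. Libraries of the same group differed by more than counting noise (median chi-square per gene from 2.21 to 7.84). The labels only number the replicates, so the p-values measure the spread between these samples, which may in part be technical. Ratios were tested with SciPy 1.17.1, and figures drawn with Python 3.11.15 and matplotlib 3.10.9. The test was checked on simulated data for this comparison over 12453 genes, with a change of 2 on the log2 scale put into 200 genes, and recovered 98.0% of these, with 7.11% of its calls false. The changed genes were drawn from those averaging over 1 CPM, and the libraries of this check had no trend of gene length. Recovery was not taken apart for genes as variable as Mt1, Mt2 and Zbtb16, so it does not give the power for these.

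The members and lists were chosen with earlier results of these data known. Named are all 10 members, of each other list the called genes and the 2 genes with the smallest p, the first gene of a list without calls, and Alb and Hnf4a, except 1 marker gene that is not reported here. The alternatives tried were library totals, median-ratio factors, DESeq2 1.42.0, other filters, no fold minimum, a replicate block, loess length offsets (span 0.3), both together, and each liver left out. Gene coordinates (mm9) are as the count files give them. Promoter windows and transcripts are of GRCm38, from RefSeq and GENCODE, and their coordinates are not those of mm9.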

Additional observations from a re-analysis of the deposited data

How the results depend on the processing

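The 10 genes had 140 values under the alternatives, of which 131 kept their sign and their side of the threshold, 3 passed it and 6 changed sign. The count of called members was 1 (Zbtb16) with DESeq2 and ranged from 0 to 1 with each liver left out, when Mt2 passed without FXR-WT replicate 1 and Zbtb16 without Y67F-FXR replicate 2. The count of members with groups that do not overlap was 3 with length offsets (Nr3c1, Sgk1 and Mt2), against 23.8% of all tested genes, and ranged from 1 to 4 with each liver left out, against 25.7% to 32%. Sign changes of members came only with a liver left out, over log2 ranges of -0.0442 to 0.35 for Tsc22d3, -0.0805 to 0.39 for Fkbp5, -0.40 to 0.15 for Errfi1 and -0.38 to 0.0646 for Dusp1. The same held for Hsd11b1 (-0.0019 to 0.17), Tsc22d1 (-0.43 to 0.11), Arntl (-0.14 to 0.41), Alb (-0.0489 to 0.0519) and Hnf4a (-0.19 to 0.0427), and Alb was also at -0.0622 with library totals.

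The count of called genes was 420 with DESeq2, 247 with length offsets and 8 with the replicate block, and ranged from 9 (without FXR-WT replicate 3) to 66 (without FXR-WT replicate 1) with each liver left out. The cause was not tested. Deviations of same-numbered livers correlated at -0.52, -0.08 and 0.12. Across numbers, FXR-WT replicate 1 with Y67F-FXR replicate 2 gave 0.54, and FXR-WT replicate 3 with Y67F-FXR replicate 1 gave 0.58. The libraries differed by gene length and these values were not corrected for it. They therefore cannot decide whether the numbers pair the mice. With the replicate block, 0 members were called, and G6pc, Bcl6 and Stip1 had log2 fold changes of 3.55, 1.80 and -1.09 with adjusted p of 0.120, 0.146 and 0.113 from edgeR. With the block and length offsets, 93 genes were called, these 3 among them (adjusted p = 0.0482, 0.0482 and 0.0318 from edgeR).

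Zbtb16 rests on 29 to 296 reads a liver. Each interval rests on 3 livers a group.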

Other observations

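By the naming rule, the marker lists of other liver cells add values that stand in no comparison above. S100a8 and S100a9, neutrophil genes, had log2 fold changes of -2.73 and -1.95 in Y67F-FXR livers (adjusted p = 0.0529 and 0.106 from edgeR). Lrat and Ngfr of stellate cells had -1.15 and -0.93 (adjusted p = 0.0540 and 0.273 from edgeR), and Lyve1, Ehd3 and Stab2 of sinusoidal endothelium had -0.89, -0.17 and 0.12 (adjusted p = 0.210, 0.576 and 0.769 from edgeR). Krt19 of cholangiocytes had -0.80 (adjusted p = 0.420 from edgeR), and Alas2 of erythrocytes had 0.16 (adjusted p = 0.708 from edgeR). None of these genes was called in edgeR, while DESeq2 called S100a8, S100a9 and Lrat lower (adjusted p = 0.00435, 0.00430 and 0.000132). Over all genes DESeq2 called 1.59% lower. With length offsets edgeR also called S100a8, S100a9 and Lrat (adjusted p = 0.0344, 0.0451 and 0.0189), with no filter S100a8 and Lrat, with library totals S100a8, and with median-ratio factors or with length offsets and the replicate block Lrat. At an unadjusted p under 0.05 in edgeR, 2 of 11 Kupffer cell and leukocyte markers, 4 of 10 stellate cell markers, 1 of 10 endothelial markers and 1 of 9 hepatocyte markers were lower and 0 higher, against 6.67% lower and 6.75% higher over all tested genes. Of the Kupffer cell and leukocyte markers 5 were fitted higher and 6 lower (median log2 fold change -0.02), of the stellate cell markers 1 and 9 (-0.34), of the endothelial markers 6 and 4 (0.01), and of the 6 tested cholangiocyte markers 4 and 2 (0.04).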
